A study of Mus musculus with 8 samples.

Results

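The m6A peaks of 4 mouse genes are described here: Lrig1, Lrig2 and Lrig3, which form the LRIG family, and Mfhas1. The peaks were selected by gene name, with older names in the deposited peak lists updated through the gene identifier. This yielded 29 of 38705 peaks over 4 lists. Peaks that shared at least 1 bp were merged across the lists, giving 14 regions for the 4 genes among 21168 regions of 9778 genes. Lrig1 and Mfhas1 were picked for coding regions called only in the control libraries. Their control-only calls are therefore a description of how they were picked, and they carry no test. Lrig2 and Lrig3 were taken as the other members of the family.

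The methylated adenosine m6A was mapped along mRNA by MeRIP-seq, in which RNA fragments are pulled down with an antibody against m6A (IP) and sequenced beside input RNA made without antibody. The cells were mouse embryonic fibroblasts (MEFs), primary cells from wild type C57BL/6 embryos taken 13.5 days post-coitum and used at passages 5 to 6. Control MEFs stayed untreated in full medium, and starved MEFs were held in nutrient-deprived medium for 2 h. Each of these groups had 2 replicates, and each replicate gave an IP library and its input, so the 8 samples gave 4 peak lists. The study calls the replicates biological. The number of embryos behind each culture was not given in the sources used here.

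LRIG proteins sit in the plasma membrane and carry leucine-rich repeats and immunoglobulin-like domains outside the cell. LRIG1 is best known as a brake on receptor tyrosine kinases such as those of the EGF receptor family, whose breakdown it promotes, and it marks stem cells of the skin and gut. Mfhas1 encodes a cytosolic protein of the ROCO family, which joins leucine-rich repeats to a GTP-binding domain, and it is known from signalling by Toll-like receptors. The mark is deposited on mRNA mainly in the context of a central GGAC and related motifs, often near stop codons and in long exons.

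The lists held 8974 to 10103 peaks each, with median fold enrichments of IP over input of 12.2 (control 1), 12.3 (control 2), 14.6 (starved 1) and 14.7 (starved 2). Each peak had a score, minus 10 times log10 of its p-value, which started at 50.01 and reached a limit near 3100. The share of peaks at 3100 or more ran from 13.2% to 17.0% in control and from 27.8% to 28.5% in starved lists. The deposited false discovery rate was never below 5.56%. Among fibroblast markers, 9 of 12 had a peak in at least 1 list, with Col1a1, Vim and Twist2 the exceptions. Of 7 markers of other cell types, Krt8 and Cd68 had a peak. A peak needs both RNA and methylation, so these lists check the cell type only in part. The files give no read counts, so the depth is unknown, and a region without a peak is one that was not called, not one shown to lack m6A. RNA levels of the 4 genes were not analysed here. In such bulk libraries, fewer cells carrying a transcript and fewer marked transcripts per cell cannot be told apart.

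The 4 sequences below come from the RefSeq GRCm38.p6 genome, the assembly of mm10 that the lists use, and are printed 5′ to 3′ on the transcribed strand with every GGAC in capitals. The first is the merged Lrig1 coding region that only the control libraries called, on chr6:94608709-94608939, minus strand. It is nucleotides 2267 to 2497 of the coding sequence.
Lrig1 exon 15 region: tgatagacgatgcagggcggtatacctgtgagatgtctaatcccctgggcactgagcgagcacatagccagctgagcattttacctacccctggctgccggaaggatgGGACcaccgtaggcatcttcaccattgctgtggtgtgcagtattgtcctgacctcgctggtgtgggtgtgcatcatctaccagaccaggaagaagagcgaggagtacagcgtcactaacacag

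The other 3 are the coding parts of the last exons of the LRIG genes, without the stop codon, shown because all 3 genes had a peak there. They lie on chr6:94605762-94606003, minus strand (Lrig1), on chr3:104457768-104457964, minus strand (Lrig2), and on chr10:126014676-126014917, plus strand (Lrig3).
Lrig1 last exon: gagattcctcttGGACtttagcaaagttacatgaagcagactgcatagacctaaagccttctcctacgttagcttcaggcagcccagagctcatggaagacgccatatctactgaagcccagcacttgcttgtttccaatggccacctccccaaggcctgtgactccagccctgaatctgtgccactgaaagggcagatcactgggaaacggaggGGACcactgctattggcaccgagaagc
Lrig2 last exon: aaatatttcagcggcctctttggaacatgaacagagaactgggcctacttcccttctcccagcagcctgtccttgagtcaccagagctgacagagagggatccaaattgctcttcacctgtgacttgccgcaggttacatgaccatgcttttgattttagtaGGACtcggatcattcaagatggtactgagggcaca
Lrig3 last exon: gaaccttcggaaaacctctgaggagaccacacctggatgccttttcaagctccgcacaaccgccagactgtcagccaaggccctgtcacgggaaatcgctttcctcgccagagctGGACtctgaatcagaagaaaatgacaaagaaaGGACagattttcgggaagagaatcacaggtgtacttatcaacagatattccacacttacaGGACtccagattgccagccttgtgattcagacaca

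The Lrig1 exon 15 region holds 1 GGAC. The last coding stretches hold 2 in Lrig1, 1 in Lrig2 and 3 in Lrig3. The first GGAC of the Lrig1 stretch lies outside the only peak called in that exon, on chr6:94605054-94605972. All GGACs counted here are matches of letters, and whether any of these adenosines is methylated cannot be read from the lists.

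The 29 peaks fell unevenly over the libraries, with 4 in control 1, 10 in control 2, 8 in starved 1 and 7 in starved 2. Lrig1 had 4 peaks in 3 regions, Lrig2 had 5 in 2 regions, Lrig3 had 11 in 6 regions and Mfhas1 had 9 in 3 regions. Fold enrichment ran from 4.52 to 166, and 12 of the 29 peaks had a score of 3100. Over all peaks, the share at 3100 or more was 13.2% to 28.5% by list. Of the 12 peaks, 4 were calls of 1 Lrig2 region, 3 were in Lrig3, 3 in Mfhas1 and 2 in Lrig1. In the control libraries, 13 of the 14 peaks lay above the median fold enrichment of their own list. In the starved libraries this held for 7 of 15 peaks. The selection of Lrig1 and Mfhas1 on control-only calls enters these counts, so they are a description.

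**Figure D1:**
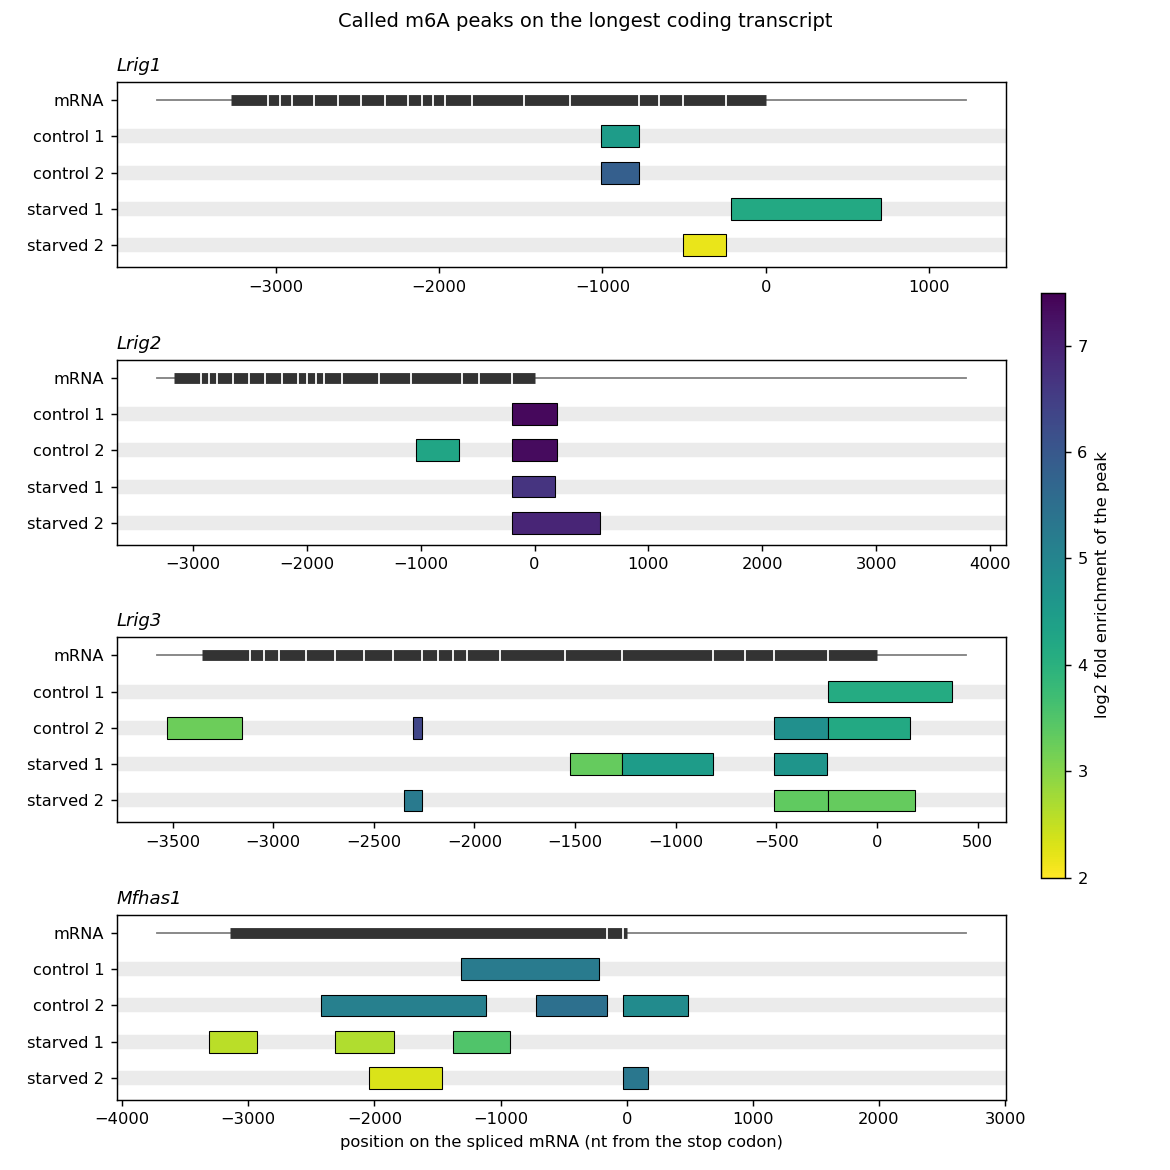
Position of every called peak on the spliced mRNA of the 4 genes, in nt from the stop codon, with 1 row per library and the colour giving the log2 fold enrichment of the peak. The thick line is the coding sequence and its gaps are exon junctions. Of the Lrig3 peaks that reach into an intron, only the part inside exon 8 is drawn. Lrig1 shows peaks at different places in control and starved libraries, while the Lrig2 peak at the stop codon recurs in all 4.

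Of the 14 regions, 1 was control-only, that is, called by control 1 and control 2 and by no starved library, against 4.15% of all regions, and it is the Lrig1 region. Starved-only regions, defined the same way, numbered 0, against 3.20% of all regions. The regions of Lrig2 and Mfhas1 that all 4 libraries called made 2 of 14, against 10.7% of all regions. A peak in 1 library only was found for 7 of the 14 regions (50.0%, against 56.2% of all), in 2 libraries for 3 regions (21.4%, against 21%) and in 3 libraries for 2 regions (14.3%, against 12.2%). Single libraries moved the counts. Without control 1 there were 4 control-only regions, where 22.4% of all regions had that pattern, and without starved 2 there were 2, against 7.97% of all. Starved-only regions numbered 2 without control 2 (6.85% of all), 1 without starved 1 (18.5% of all) and 4 without starved 2 (19.9% of all). Regions called in every remaining library fell to 1 without control 2, against 15.9% of all.

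**Figure D2:**
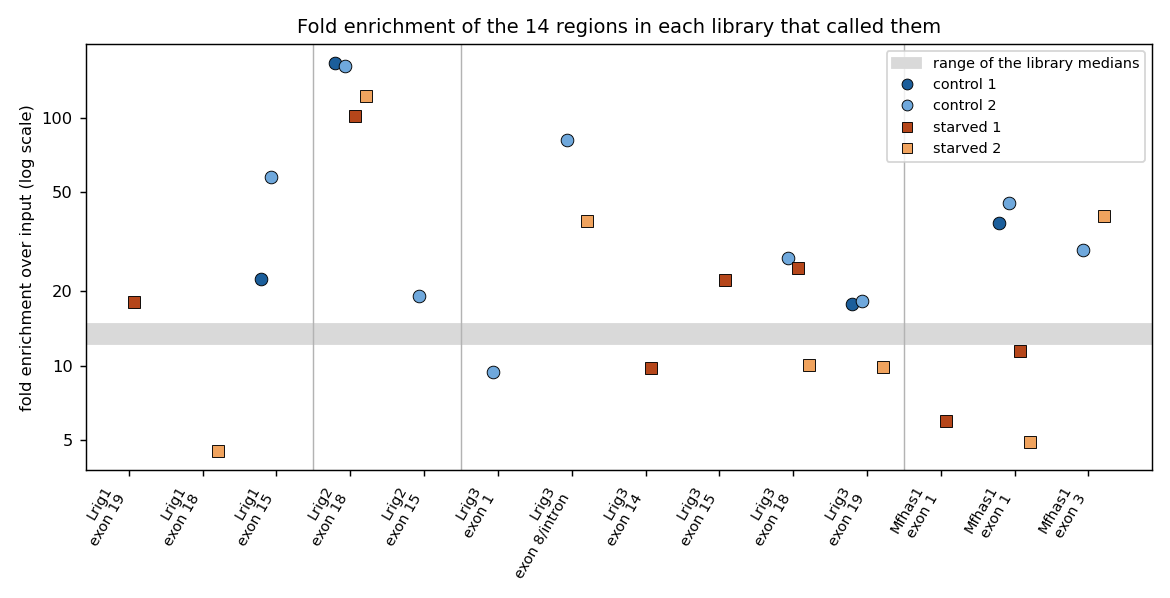
Fold enrichment over input, on a log axis, of the 14 regions in each library that called them, with circles for control and squares for starved libraries. The grey band spans the median fold enrichment of the 4 lists, from 12.2 to 14.7. Where a library had several peaks in a region the highest is drawn, and a missing symbol means that the library did not call the region. The Lrig2 exon 18 region stands highest, between 102 and 166.

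Lrig1 (ENSMUSG00000030029) lies on the minus strand of chromosome 6, and its longest coding transcript has 19 exons and a coding sequence of 3276 nt. The control-only region printed above covers the 3′ part of exon 15, an internal coding exon of 420 nt, and it ends exactly at the exon edge. Control 1 called it with a fold enrichment of 22.3 and control 2 with 57.6, each with a score of 3100. These values were above 70.4% and 89.6% of the peaks of their own lists. The deposited false discovery rates were 13.3% and 9.35%. Both control peaks were nearly the same in extent, 230 and 231 bp, and their centres lay 892 and 893 nt before the stop codon. Neither starved library called any base of it.

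The starved libraries called Lrig1 elsewhere, each at a place that no other library called. Starved 1 had a peak of 919 bp across the stop codon in exon 19, the last exon, on chr6:94605054-94605972, with a fold enrichment of 18.1, a score of 1712 and its centre in the 3′ UTR. Starved 2 had a peak that filled exon 18, 261 bp of coding sequence on chr6:94606103-94606363. Its fold enrichment was 4.52, above 9.47% of its list, with a score of 99.96 and a false discovery rate of 60.5%. The Lrig1 transcript thus had no called base shared by a control and a starved library. Of 1411 bp called in any library, 230 bp (16.3%) were called in both control and neither starved library, against 4.09% of all called bases in the lists. Another 919 bp (65.1%) belonged to starved 1 and 261 bp (18.5%) to starved 2.

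Regions of other genes with the same calls as the Lrig1 region, in both control libraries only and centred in coding sequence, numbered 347. The 3 most like it, by the Euclidean distance between the 2 control log2 fold enrichments, were those of Paxbp1, Aspm and Zfp37. Paxbp1 had fold enrichments of 21.9 and 58.5 in control 1 and control 2, at a distance of 0.0332. Aspm had 16.9 and 65.8, at 0.442. Zfp37 had 26.4 and 78.2, at 0.50. This likeness rests on the 2 control libraries that chose the regions.

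Lrig2 (ENSMUSG00000032913), a family member whose human counterpart is mutated in a congenital bladder disorder, carried the most enriched peak of the family. It lies on the minus strand of chromosome 3, and all 4 libraries called its last exon, number 18, across the stop codon on chr3:104457188-104457964. The fold enrichment was 166 in control 1, 162 in control 2, 102 in starved 1 and 122 in starved 2, each with a score of 3100. All 4 values were within the top of their lists, above 95.1% to 98.1% of the peaks. Both control values lay above both starved values, which held for 18.0% of the 2257 regions called in all 4 libraries, while 22.9% had both starved values higher.

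The mean log2 fold enrichment of this Lrig2 region was 7.36 ± 0.0255 (SD, n = 2) under control conditions and 6.80 ± 0.188 (SD, n = 2) after starvation. The difference, starved minus control, was -0.55 on the log2 scale (two-sided exact permutation p = 0.3333). No smaller p is possible in this test with 2 libraries per group, so it could not reach 0.05 in any comparison of these groups. The difference exceeded the spread between replicates, but over all 2257 shared regions its median was 0.10 with quartiles of -0.58 and 0.78. A value lower than that of Lrig2 was found in 579 of them (25.7%), so a difference of this size was common among shared regions.

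**Figure D3:**
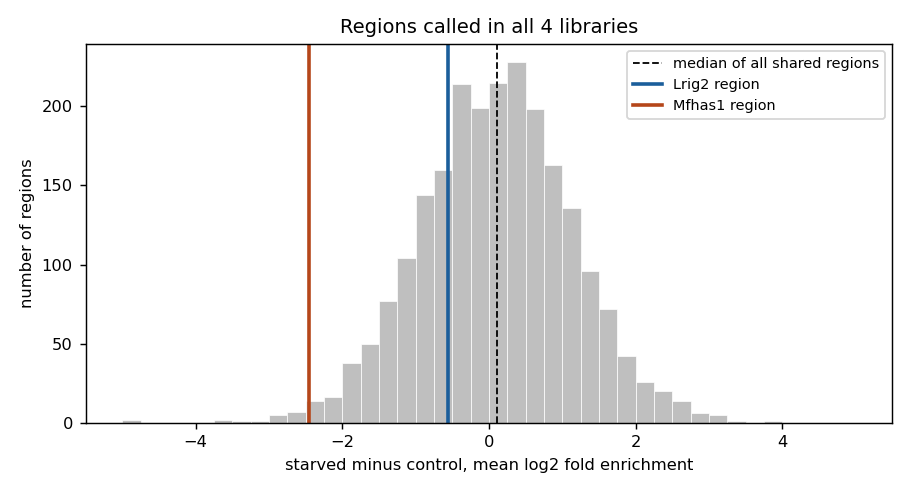
Starved minus control difference in mean log2 fold enrichment of the 2257 regions called in all 4 libraries, in bins of 0.25, with values beyond 5 in either direction placed in the end bins. The dashed line is their median at 0.10, and the coloured lines mark the Lrig2 region at -0.55 and the Mfhas1 region at -2.45.

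The extent of the Lrig2 peak differed between libraries on its 3′ side only. All 4 peaks began at the first base of the last exon, and 376 bp were called in all 4 libraries. The control peaks were 397 bp long each and the starved 1 peak 376 bp, while the starved 2 peak ran on to 777 bp, into the 3′ UTR. The 1 GGAC of the whole region is the one capitalised in the Lrig2 last exon above. A second Lrig2 peak was called in control 2 only, in exon 15 on chr3:104463885-104464260, with a fold enrichment of 19.2 and a score of 466.

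Lrig3 (ENSMUSG00000020105), which in mice takes part in shaping the inner ear, had the most peaks and regions of the 4 genes, and none of its regions was called in all 4 libraries. It lies on the plus strand of chromosome 10. Its last exon, number 19, was called on chr10:126014676-126015289 in control 1, control 2 and starved 2, with fold enrichments of 17.7, 18.2 and 9.83. All 3 peaks crossed the stop codon and began at the first base of the exon. Exon 18, the coding exon before it, was called in control 2, starved 1 and starved 2, at 27.3, 24.7 and 10.1. In both exons starved 2 had the lowest value, and starved 1 called exon 18 at close to the level of control 2.

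The highest Lrig3 values came from a region that lay mostly outside the coding transcript. Control 2 called it at 81.6 and starved 2 at 38.2, each with a score of 3100, on chr10:125997659-125997905. Only 42 bp of the control 2 peak and 89 bp of the starved 2 peak were in coding exon 8. The rest lay in the intron that follows, inside an annotated exon of the retained-intron transcript Lrig3-202. Regions called in just these 2 libraries made 2.92% of all regions, and the last exon of Mfhas1 was another.

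The other 3 Lrig3 regions had a peak in 1 library each. Control 2 called exon 1, across the start codon, with a fold enrichment of 9.43. Starved 1 called exon 14 at 9.79 and the whole of exon 15, 453 bp, at 22.2. These peaks were at modest levels, above 34.9% to 64.4% of their lists.

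The paralogues were compared exon by exon by aligning their coding sequences, which were identical at 62.2% of aligned positions for Lrig1 and Lrig2, 63.7% for Lrig1 and Lrig3, and 64.7% for Lrig3 and Lrig2. Exon 15 aligned with exon 15 in each pair, over at least 92.3% of the length of either exon. This exon was called in all 3 genes, yet never in the same set of libraries. It was called in control 1 and control 2 for Lrig1, in control 2 for Lrig2, and in starved 1 for Lrig3. The control-only pattern of Lrig1 was thus not shared by the matching exon of either relative, and with 2 libraries per group this difference between genes was not tested. The last exons aligned less well, over 42.4% to 84.5% of their coding part. They were called in 1 library for Lrig1, in 4 for Lrig2 and in 3 for Lrig3.

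Mfhas1 (ENSMUSG00000070056) lies on the plus strand of chromosome 8 and has 3 exons, of which the first, 3561 nt long, holds most of the coding sequence of 3147 nt. Although Mfhas1 was picked for a coding region called only in the control libraries, its merged exon 1 region of 2268 bp on chr8:35589091-35591358 had peaks in all 4. Its 3′ stretch of 493 bp was called in control 1 and control 2 and in no starved library. A further 212 bp of the region were called in control 1 alone and 267 bp in control 2 alone. The stretch makes 21.7% of the merged region and 15.6% of the 3163 bp of Mfhas1 called in any library. Over all lists, 4.09% of the called bases had that pattern. As Mfhas1 was picked on such calls, its shares are a description.

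In exon 1 the control peaks were long and strongly enriched. Control 1 had a peak of 1092 bp with a fold enrichment of 37.7. Control 2 had a peak of 1312 bp at 34.7 and one of 557 bp at 45.1. All 3 scored 3100, and they were above 80.8% to 85.7% of the peaks of their lists.

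The starved peaks of the same region were shorter and weaker. Starved 1 had a peak of 471 bp at 6.30, with a score of 187, and one of 449 bp at 11.5, with a score of 696. Starved 2 had a peak of 576 bp at 4.94, with a score of 53.5 and a false discovery rate of 81.3%. All 3 lay below the median of their lists, above 12.2% to 41.2% of the peaks. Starved 1 also called the start of exon 1, on chr8:35588209-35588583 across the start codon, at 5.95, where no other library had a peak.

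**Figure D4:**
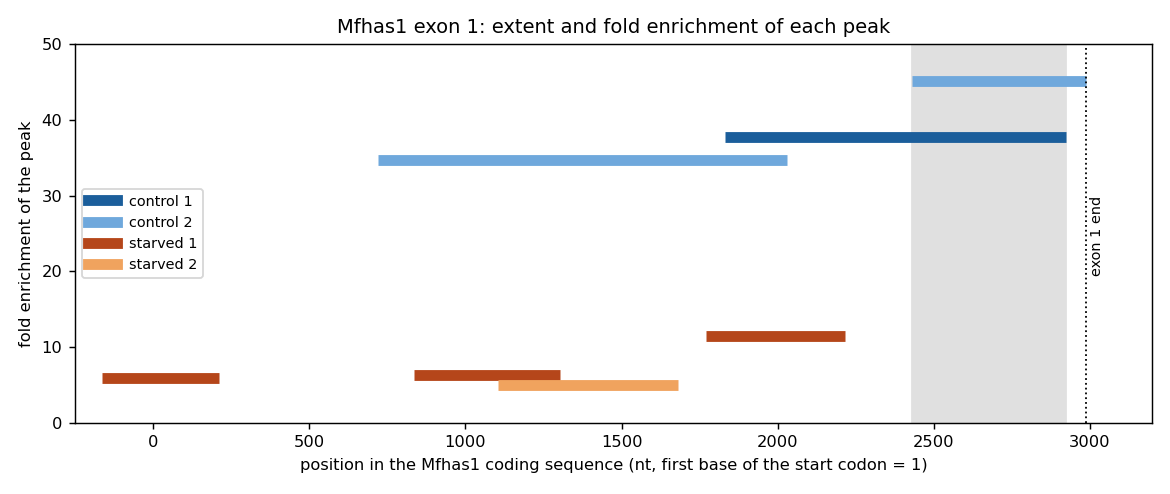
Extent and fold enrichment of the 7 peaks of Mfhas1 exon 1, by position in the coding sequence in nt. Each bar is 1 peak, coloured by library, and the shaded area is the 493 bp called in both control and neither starved library. The 3 control peaks lie between 34.7 and 45.1, and the 4 starved peaks between 4.94 and 11.5.

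Taking the highest peak of each library in the merged region, Mfhas1 had fold enrichments of 37.7 in control 1, 45.1 in control 2, 11.5 in starved 1 and 4.94 in starved 2. These are not values of 1 site. The control 2 peak at 45.1 overlapped no starved peak, and the control 1 and starved 2 peaks shared no base. The mean log2 fold enrichment was 5.37 ± 0.184 (SD, n = 2) under control conditions and 2.91 ± 0.858 (SD, n = 2) after starvation, a difference of -2.45, or 5.48-fold. Both control values lay above both starved values, as in 18.0% of the 2257 shared regions. Another 22.9% of them had both starved values higher. With the libraries left out in turn the difference ran from -3.06 (without starved 1) to -1.85 (without starved 2). With peaks scoring at least 100 only, or with a false discovery rate under 20% only, starved 2 had no peak in the region. Of the 2257 shared regions, 19 (0.842%) had a lower difference. As Mfhas1 was picked on calls of the same contrast, these values describe the choice and no test was made. Within the merged region, 200 bp (8.82%) were called in both control libraries and starved 1, and no base was called in all 4.

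In the last exon of Mfhas1 the starved value was the higher one. Control 2 called it on chr8:35676730-35677249 at 29.4, with a score of 1349, and starved 2 called its first 202 bp at 40.1, with a score of 3008. Control 1 and starved 1 did not call it. Within starved 2, the Mfhas1 peak at the stop codon was thus above 80.2% of the list and the exon 1 peak above 12.2% of it.

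The genes differed in where on the transcript their peaks lay. Of the 27 peaks whose centre was on the coding transcript, 17 fell in coding sequence, 7 in the stop codon window (100 nt to either side) and 3 in the 3′ UTR. Lrig1 and Mfhas1, which were picked for coding regions, supplied 10 of the 17, so the total is read no further. Of the 14 placed peaks of Lrig2 and Lrig3, 7 (50.0%) were in coding sequence, close to the 48.5% of all peaks. Another 6 (42.9%) lay in the stop codon window, against 12.4% of all peaks, and these are repeated calls of the last exons of Lrig2 and Lrig3. The coding count was 1 of 5 for Lrig2 and 6 of 9 placed peaks for Lrig3. None of the 27 peaks was centred in the 5′ UTR, where 4.28% of all peaks lay. An exon edge was the start or end of 18 of the 29 peaks, against 48.4% of all peaks, and 4 peaks filled an exon of Lrig1 or Lrig3. Most of the 29 peaks came from the picked genes or from repeated calls of the same region, so they are not independent.

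GGAC was searched on the transcribed strand in the 200 bp at the centre of each region. It was present in 11 of the 14 regions, and in 61.0% of the 20608 regions with a known strand. The regions without it were those of the Lrig1 last exon, the Lrig2 last exon and Lrig3 exon 8 with its intron. Over their whole length, the Lrig3 region held no GGAC either, the most enriched region, in Lrig2, held 1 and the Lrig1 region held 3. The wider motif, GGAC or GAAC or AGAC or AAAC followed by A, C or T, which overlaps GGAC, had a median of 2.5 matches in the member windows and 3 over all regions.

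Genes of related pathways were counted from lists that were set with earlier results of these data known. Among 21 genes of receptor tyrosine kinases and their feedback, on whose pathway LRIG1 acts, 20 had a peak, in 48 regions. Of these regions 5 (10.4%) were control-only, against 4.15% of all regions. Another 1 (2.08%) was starved-only, against 3.20%, and 7 (14.6%) were called in all 4 libraries, against 10.7%. As the list was set with earlier results known, these counts are a description. The control-only regions belonged to Spry4, Spry1 and Spry2, feedback inhibitors of receptor kinase signalling, to their relative Spred3, and to Pdgfra, a receptor for platelet-derived growth factor. Their control 1 and control 2 fold enrichments were 25.7 and 14.1 for Spry4, 22.6 and 11.9 for Spry1, and 12.4 and 21.2 for Pdgfra. Spry2 had 10.2 and 6.18, and Spred3 had 7.02 and 3.94. The starved-only region was in the 3′ UTR of Cbl, a ubiquitin ligase that marks active receptors for breakdown, at 24.6 and 14.6.

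The other lists held 0 control-only regions, where 4.15% of all regions had that pattern, and their counts in the remaining patterns were near the shares of all regions, 3.20% for starved-only and 10.7% for all 4 libraries. Among 34 genes of other cell surface proteins with leucine-rich repeats, 18 had a peak, in 39 regions, of which 5 (12.8%) were called in all 4 libraries. The 1 starved-only region (2.56%) was in the coding sequence of Flrt1, which encodes a membrane protein with such repeats, with fold enrichments of 24.5 and 103. Among 20 genes of ROCO proteins, cytosolic leucine-rich repeat proteins and partners of Mfhas1, 19 had a peak, in 45 regions, of which 4 (8.89%) were called in all 4 libraries. Both starved-only regions (4.44%) were in the coding sequence of Lrrk1, a ROCO kinase and so a relative of Mfhas1, at 12.3 and 24.1 and at 7.40 and 16.8.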

How the data were processed

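Peak lists of the 4 IP libraries were used, and input libraries entered only through peak calling. Per the labels, reads were aligned to mm10 with HISAT2 2.0.4 and peaks were called with MACS2. The columns resemble those of an earlier MACS series, so the caller version behind score and rate is uncertain. Per the study's methods, peaks were called per IP library against its input and kept where they overlapped exons. The deposited fold enrichment is the authors' ratio of IP signal to the local background of its input. The deposited score is minus 10 times log10 of a p-value, and the deposited false discovery rate is a percent. The deposited start, end and length columns are positions, and starts were raised by 1. A further table of the authors' differential sites (fold change, p-value, false discovery rate and direction) was not used. The number of per-sample columns without a sample was 0.

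Peaks sharing at least 1 bp were merged. A region's value in a library is its highest fold enrichment, on the log2 scale with no pseudocount. Peaks were placed by their centre on the longest coding transcript (GENCODE M21). Regions called in all 4 libraries were compared by a two-sided exact permutation test over libraries. Depth is unknown, since the files hold no reads, so no counting error could be given. The members and gene lists were chosen with earlier results of these data known. All member peaks are described, and the 3 most similar control-only coding regions are named. From each gene list, all genes with a region called only in both libraries of 1 group are named. The planned limit was 5 genes in each list, and the list of receptor kinases and their feedback went beyond it. The sequence of an Mfhas1 stretch is not reported here. In 1284 peaks an older gene name was replaced through its identifier. Alternatives changed the merging, the peak filters, the scaling, the transcript, the motif window and the libraries. Python 3.11.15, numpy 2.4.6, pandas 2.3.3, scipy 1.17.1, Biopython 1.88, pysam 0.24.0, samtools 1.23.1 and matplotlib 3.10.9 were used. The merging, call patterns and group differences were checked on simulated peaks, and coding start and end on a made-up minus-strand transcript. The permutation test was not part of these checks.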

Additional observations from a re-analysis of the deposited data

How the results depend on the processing

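The member counts were 1 control-only, 0 starved-only and 2 regions called in all 4 libraries. They were unchanged when peaks were joined only where they shared at least 0.5 of the shorter peak, kept only at a fold enrichment of at least 4, taken in equal number per library, or chosen by exon overlap in place of gene name. The shares over all regions did move. Control-only regions made 4.15% in the main setting, 4.01% with the stricter joining, 4.01% with the fold limit and 3.57% with equal numbers. Starved-only regions made 3.20%, 3.1%, 3.36% and 3.61% in the same order. With equal numbers the starved-only share was thus slightly higher than the control-only share. Regions called in all 4 made 10.7%, 9.81%, 10.1% and 9.85%. Regions called in all 4 libraries fell from 2 of 14 to 1 of 13 with peaks scoring at least 100 only (9.81% of all regions). With a false discovery rate under 20% only, they fell to 1 of 9 (7.57% of all). The unfiltered share was 10.7% of all. In each case Lrig2 stayed and Mfhas1 dropped out, as its starved 2 peak missed both limits. Leaving out each library in turn gave 1 to 4 control-only regions (7.97% to 22.4% of all regions), 0 to 4 starved-only regions (6.85% to 19.9% of all) and 1 to 3 regions called in every remaining library (15.3% to 16.1% of all). Without control 1, the added control-only regions were Lrig2 exon 15, Lrig3 exon 1 and a part of Mfhas1 exon 1. That part was the 557 bp peak of control 2, on chr8:35590802-35591358. Without starved 2, Lrig3 exon 19 became control-only.

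The Lrig2 difference of -0.55 was -0.81 with fold enrichments centred on the library median, and -0.69 to -0.42 with libraries left out. The Mfhas1 difference of -2.45 was -2.71 when centred, -2.58 with the mean of several peaks, and -3.06 to -1.85 with libraries left out. With the replicate block the values were -0.55 and -2.45, equal to the unblocked ones by construction. The pairs gave -0.71 and -0.40 for Lrig2 and -1.72 and -3.19 for Mfhas1. Over 2257 shared regions, deviations of libraries with the same number correlated at -0.0173, so the numbers were not taken as pairs. The coding count stayed at 17 with the transcripts the lists name, GGAC was found in 9 of 14 windows of 100 bp (38.6% of all), and all 29 peaks had a fold enrichment of at least 4. Placement and windows by summit were not run, because the lists used here give no summit. Unknown depth limits every statement about a region that was not called.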
